A study of Arabidopsis thaliana with 4 samples.

Results

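The genes described here are 10 genes of the plastid genome, 6 for subunits of the cytochrome b6f complex (petA, petB, petD, petG, petL and petN) and 4 for subunits of photosystem I (psaA, psaB, psaC and psaJ). They were chosen by name: a probe set belonged to the group when the platform annotation gave it exactly 1 gene and that gene was among the 10. Each gene had 1 such probe set, so the group held 10 of the 22810 probe sets on the array. Of the 10 probe sets, 9 had a mean signal that reached 100 and were tested, and petD, at a mean of 64.6, was not.

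The study measured transcripts with single-colour Affymetrix arrays in untreated, whole seedlings of Arabidopsis thaliana (Col-0), grown for 2 weeks at 22 °C on agar with 3% sucrose in cycles of 16 h light and 8 h dark. There were 2 arrays titled as plants that overexpress At1g54160, the locus of NFYA5, a subunit of a CCAAT-binding transcription factor, and 2 arrays of wild type. The series' design text instead speaks of an nfya5 mutant. The name in the titles, overexpressor, is used here, but the label could not be checked on the arrays because 0 probe sets were listed for At1g54160. The promoter driving the gene, the number of transgenic lines and whether plants were pooled are not given in the sources used here. No label says that replicates were separate cultures. The p-values rest on the spread among these 4 arrays, steadied with the spread of the other tested probe sets on the same arrays. That spread may be technical.

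The cytochrome b6f complex sits in the thylakoid membrane between the photosystems. It takes electrons from plastoquinol, passes them to plastocyanin and pumps protons into the lumen, and photosystem I then uses light to move the electrons on to ferredoxin. Both complexes are mosaics: the chloroplast genome encodes most of their catalytic core, and the nucleus encodes further subunits, so that 2 genomes supply each of them. Plastid genes are mostly transcribed in multi-gene units, as in bacteria, and the long RNAs are then cut and trimmed by nuclear-encoded RNA-binding proteins.

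Wild type replicate 1 stood apart for plastid transcripts, and the values of the members and of their operon neighbours are therefore also given without it. Relative to each gene's own mean over the 4 arrays, the median log2 signal of the tested pet and psa genes was 0.10 and 0.21 on overexpressor replicates 1 and 2, against -0.55 and 0.10 on wild type replicates 1 and 2. The 56 other tested plastid genes had 0.12 and 0.24 on the overexpressor arrays, against -0.41 and 0.06 on the wild type arrays. Over all 13961 tested probe sets the 4 medians lay between -0.01 and 0.01, so the low array was low for plastid genes and not for the typical transcript. Wild type replicate 1 was the lowest of the 4 arrays for 9 of the 9 tested members, for 50 of the 56 other plastid genes and for 4243 of the 13961 tested probe sets. The control probe sets for GAPDH gave a 3′ to 5′ signal ratio of 1.78 and 1.78 on the overexpressor arrays, against 2.01 and 1.80 on wild type replicates 1 and 2. For actin the ratio was 23.6 and 17.1, against 32.2 and 25.1. The highest ratio of each control was thus on the same array, and the part of RNA quality in the plastid values was not tested.

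Transcripts of petG, petL and psaJ were higher in the overexpressor: petG 3.20-fold, petL 1.69-fold and psaJ 1.65-fold, on the scale of signal + 50, which was used to steady low signals and understates changes of dim probe sets. All 3 encode small hydrophobic subunits, but so does petN, which did not pass. petA, petB, petN, psaA, psaB and psaC did not pass. Of the 9 tested members 3 were called higher and 0 lower (limma, Benjamini-Hochberg adjusted p of at most 0.05 over all tested probe sets, with 4 members, all of them higher, at an unadjusted p under 0.05). The count was 2 without wild type replicate 1, 5 without wild type replicate 2, and 0 with no filter on low signals or with a constant variance prior, where the lowest adjusted p of the members was 0.21 and 0.12. Over all tested probe sets 1.29% were called, and 0.53% were called as higher. Of the other plastid genes, 2 of 56 were called, both higher. An unadjusted p under 0.05 (limma) was reached by 29 of these 56 and by 2307 of the 13961 tested probe sets. The 4 members at that level are thus not set apart from other plastid genes. The median log2 fold change was 0.31 over the tested members (0.10 for the 5 cytochrome b6f genes and 0.50 for the 4 photosystem I genes), 0.36 over the other plastid genes and 0.02 over all tested probe sets. Without wild type replicate 1 the median of the members was -0.059. Because whole seedlings were sampled, a difference in the share of green cells or plastids and a difference in RNA per plastid cannot be told apart.

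**Figure D1:**
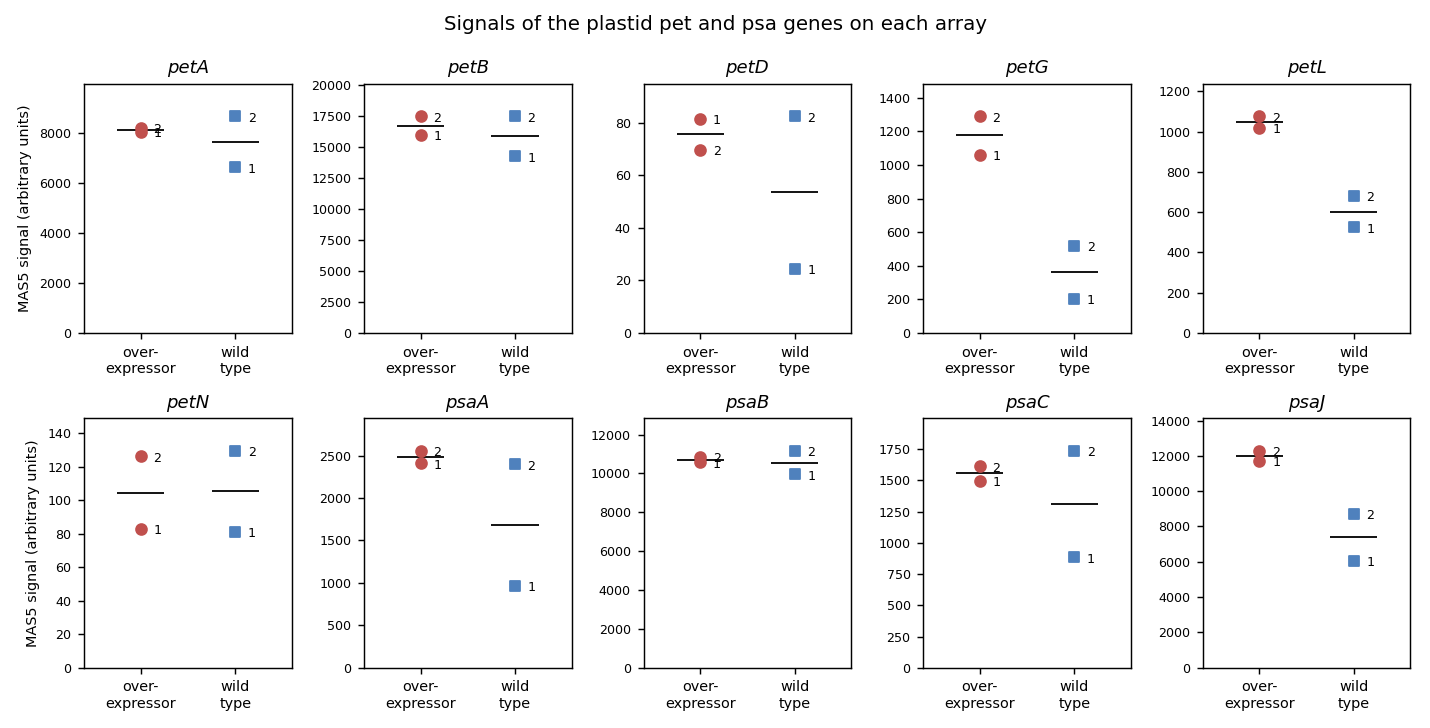
MAS5 signal in arbitrary units of the 10 plastid pet and psa genes, 1 panel a gene with its own linear axis from 0, on 2 overexpressor arrays (circles, left) and 2 wild type arrays (squares, right); small digits are replicate numbers and bars are means of 2 arrays. Only in the panels of petG, petL, psaJ and, narrowly, psaA do all circles lie above all squares, and wild type replicate 1 is the lowest point in every panel.

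For the large cytochrome b6f subunits the groups overlapped. petA encodes cytochrome f, the haem protein that hands electrons to plastocyanin. Its signal was 8037 and 8193 on the overexpressor arrays, against 6621 and 8653 in wild type. Both overexpressor values lay between the wild type values, and the log2 fold change was 0.10 ± 0.12 (SE, 95% interval -0.16 to 0.36, adjusted p = 0.72). Without wild type replicate 1 it was -0.09.

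petB encodes cytochrome b6, which carries the haems of the quinol-oxidising core. It had signals of 15968 and 17479 in the overexpressor, against 14259 and 17453 in wild type, with a log2 fold change of 0.08 ± 0.11 (SE, interval -0.16 to 0.32, adjusted p = 0.76) and -0.063 without wild type replicate 1. Here the lower array of each group was replicate 1 and the upper arrays of the groups were nearly equal. petD encodes subunit IV, the partner of cytochrome b6, and its probe set was dim on all arrays, at 81.4 and 69.8 in the overexpressor against 24.5 and 82.5 in wild type. Its difference was 0.34 on the log2(signal + 50) scale, and -0.08 against wild type replicate 2 alone. No detection calls were used here, so whether the petD probe set was above background is unknown.

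Among the small subunits, petG and petL passed and petN did not. petG encodes subunit V, a short membrane-spanning protein without which the complex does not accumulate in algae and tobacco. It had signals of 1060 and 1290 in the overexpressor, against 204.9 and 518.4 in wild type. The groups were well apart, although the wild type arrays also differed from each other by 1.16 log2 units, against 0.27 between the overexpressor arrays. The log2 fold change was 1.68 ± 0.28 (SE, interval 1.07 to 2.29, adjusted p = 0.022), and with wild type replicate 1 left out it was 1.10 (adjusted p = 0.0023). With a robust variance prior, which lets probe sets of unusual spread keep it, petG did not pass (adjusted p = 0.25).

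petL encodes subunit VI, which in tobacco is dispensable for the complex but steadies its dimer. Its signals were 1017 and 1076 in the overexpressor, against 524 and 680.8 in wild type. The log2 fold change was 0.76 ± 0.13 (SE, interval 0.48 to 1.04, adjusted p = 0.022). Leaving out wild type replicate 1 gave 0.59, which also passed (adjusted p = 0.047). Of the 3 called genes, petL was the 1 that also passed with the robust prior (adjusted p = 0.016).

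petN encodes subunit VIII, another short membrane-spanning protein. It had 83.0 and 126 in the overexpressor against 81.2 and 129.3 in wild type, so the groups overlapped and replicate 1 was the lower array of each. The log2 fold change was -0.004 ± 0.22 (SE, interval -0.48 to 0.47, adjusted p = 0.995), and leaving out wild type replicate 1 gave -0.23 (adjusted p = 0.72). The petN signals were close to the minimum of 100 for testing.

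Of the photosystem I genes, psaA and psaB encode the paired large proteins that hold the reaction-centre chlorophylls. psaA had signals of 2410 and 2556 in the overexpressor, against 967 and 2399 in wild type. The groups did not overlap, but the lower overexpressor array exceeded wild type replicate 2 by only 0.01 log2 units. The log2 fold change of 0.68 ± 0.29 (SE, interval 0.05 to 1.32) did not pass (adjusted p = 0.27). Leaving out wild type replicate 1 gave 0.05, and leaving out wild type replicate 2 gave 1.32, which passed (adjusted p = 4.7e-05). psaB had 10567 and 10852 in the overexpressor against 9962 and 11160 in wild type. Its log2 fold change, 0.02 ± 0.09 with an interval of -0.18 to 0.23, was the most tightly bounded of the 9 (SE, adjusted p = 0.94), and leaving out wild type replicate 1 gave -0.059.

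psaC encodes the iron-sulphur protein on the stromal face that passes electrons to ferredoxin. It had 1498 and 1614 in the overexpressor, against 886 and 1736 in wild type. The overexpressor values again lay inside the wild type range, with a log2 fold change of 0.31 ± 0.22 (SE, interval -0.18 to 0.80, adjusted p = 0.54). Leaving out wild type replicate 1 gave -0.15, and leaving out wild type replicate 2 gave 0.78, which passed (adjusted p = 0.0043).

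psaJ encodes a small subunit at the edge of photosystem I that neighbours PsaF, the docking site of plastocyanin. Its signals were 11715 and 12278 in the overexpressor, against 6052 and 8727 in wild type, and all overexpressor values were higher. The log2 fold change was 0.72 ± 0.14 (SE, interval 0.41 to 1.03, adjusted p = 0.039). Without wild type replicate 1 it was 0.46 and did not pass (adjusted p = 0.081), and with the robust prior it also missed the threshold (adjusted p = 0.055). In all, the groups did not overlap, with the overexpressor higher, for 4 of the 9 tested members, petG, petL, psaA and psaJ. The same was true of 26.1% of all tested probe sets and of 30 of the 56 other plastid genes, so that count by itself does not set the members apart.

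The wild type arrays differed by more than the overexpressor arrays for most members. Wild type replicate 2 exceeded replicate 1 by a median of 0.45 log2 units, ranging from 0.16 for psaB to 1.27 for psaA. The overexpressor arrays differed by a median of 0.08, with petN the widest at 0.40. Set against wild type replicate 1 alone, the overexpressor mean was higher for 9 of 9 tested members, with a median difference of 0.78. Against wild type replicate 2 alone it was higher for 4 of 9, with a median of -0.059, and those 4 were petG, petL, psaJ and psaA, at 1.10, 0.59, 0.46 and 0.05. The other plastid genes had medians of 0.61 against wild type replicate 1 and 0.12 against wild type replicate 2. Over all tested probe sets these medians were 0.02 and 0.004. Among the 56 other plastid genes, 2 exceeded wild type replicate 2 by more than psaJ did: rpl20, at 0.88, and rps15, at 0.47, which both encode plastid ribosomal proteins.

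**Figure D2:**
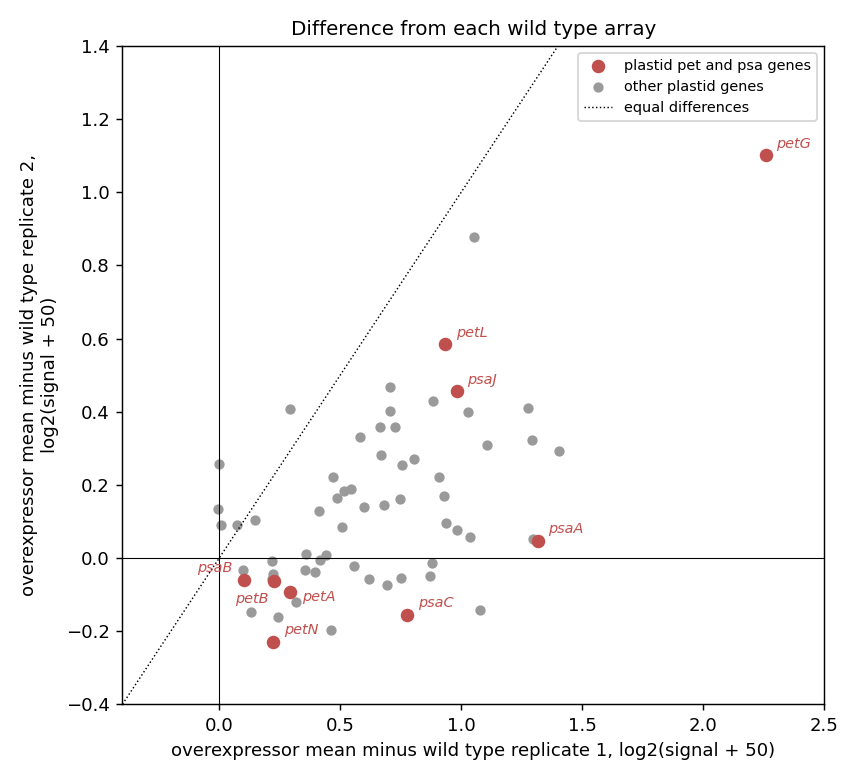
Mean of the 2 overexpressor arrays minus wild type replicate 1 (horizontal) and minus wild type replicate 2 (vertical), both on the log2(signal + 50) scale, for the tested pet and psa genes (red, named) and the other tested plastid genes (grey); the dotted line marks equal differences. Both axes share the overexpressor values. Most genes lie below the dotted line, and petG, at 2.26 and 1.10, lies farthest from the origin.

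To ask how the members moved relative to other plastid transcripts, the plastid probe sets were centred on their own median of each array and the test was repeated, a setting chosen after the values were seen. Relative to the median of the other plastid genes on the same array, petG stood at 0.59 and 0.73 on the overexpressor arrays, against -1.01 and -0.32 on the wild type arrays. In the centred test it had a log2 fold change of 1.33 and passed (adjusted p = 0.0070). petL and psaJ had 0.41 and 0.37 and did not pass (adjusted p = 0.083 and 0.061). On this scale petA, petB, psaB and petN had -0.25, -0.27, -0.33 and -0.36, psaC had -0.04 and psaA 0.33, and none of these 6 passed. The count of called members was thus 1, petG, in place of 3.

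Members that share a transcription unit were compared next, since their genes are read into shared RNAs. Units were drawn from general knowledge of plastid operons and from neighbourhood in the TAIR10.1 gene table. With 2 arrays against 2, an exact permutation test cannot give a two-sided p below 0.333, so differences between genes of a unit are given as values with no test. In the unit petL-petG both genes passed, and the log2 fold change of petG exceeded that of petL by 0.92. On wild type replicate 1 petG stood at -1.42 and petL at -0.55 relative to their own means, whereas on wild type replicate 2 they stood at -0.26 and -0.21.

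The next unit downstream, psaJ-rpl33-rps18, was the most even of those with several tested genes. Its highest and lowest log2 fold changes differed by 0.18. rpl33, for a protein of the large plastid ribosomal subunit, had 15114 and 16813 in the overexpressor against 9767 and 12062 in wild type, and its log2 fold change was 0.55 ± 0.11 (SE, adjusted p = 0.044). rps18, for a protein of the small subunit, had 4003 and 5110 against 2716 and 3517 (log2 fold change 0.54 ± 0.14, adjusted p = 0.087). For all 3 genes of the unit both overexpressor arrays were above both wild type arrays. Without wild type replicate 1 the log2 fold changes of rpl33 and rps18 were 0.40 and 0.36. Genes for tRNAs lie between petG and psaJ in the TAIR10.1 table, and those tRNAs were not analysed here.

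The psaA-psaB-rps14 unit was uneven. The log2 fold change of psaA exceeded that of psaB by 0.66. On wild type replicate 1 psaA stood at -0.98 and psaB at -0.09 relative to their own means. The third gene, rps14, was too dim to test, with signals from 9.80 to 39.1. Of the tested genes psaB was the brighter, at a mean signal of 10635 against 2083 for psaA. In the psaC unit, too, the brighter ndhI (16841) had a smaller log2 fold change than ndhH (457). In the psbB unit psbH (5173) had a larger one than the dimmer psbT (313), whereas petB, the brightest tested gene there (16290), had the smallest. petA (7876) and petL (825), each the brightest of its unit, also had the smallest. In the psaC and psaJ units the brightest genes, ndhI and rpl33, did not have the smallest. Whether brightness bears on differences within units was not tested. In the unit psaI-ycf4-cemA-petA, the member petA lies at the end. psaI, which encodes a further small photosystem I subunit and is not among the 10 genes, had 3587 and 3419 in the overexpressor against 2482 and 3119 in wild type (log2 fold change 0.33 ± 0.11, adjusted p = 0.18). ycf4, for a photosystem I assembly factor, had 0.52 ± 0.20 (adjusted p = 0.24), and cemA, for an envelope membrane protein, had 0.31 ± 0.19 (adjusted p = 0.45). Without wild type replicate 1 psaI, ycf4 and cemA had 0.16, 0.095 and -0.075.

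In the unit psbB-psbT-psbH-petB-petD, the photosystem II genes psbB, psbT and psbH had log2 fold changes of 0.20, 0.28 and 0.41, above the 0.08 of petB, and none passed. Against wild type replicate 2 alone these 4 genes lay between -0.06 and -0.01. The psaC unit runs ndhH-ndhA-ndhI-ndhG-ndhE-psaC-ndhD, where the ndh genes encode the plastid NADH dehydrogenase-like complex, which feeds electrons back to plastoquinone. Its log2 fold changes ran from -0.01 for ndhD to 0.85 for ndhH, and the 7 genes included ndhA at 0.43, ndhI at 0.09, ndhG at 0.53 and ndhE at 0.47. None of the 7 passed, the lowest adjusted p being 0.15 for ndhH. Without wild type replicate 1 ndhH had 0.29, ndhG 0.077, ndhI -0.045, ndhA -0.013, ndhE -0.14 and ndhD -0.15. Over all units, 5 of the 14 tested neighbours of members had an unadjusted p under 0.05 (limma). So did 29 of the 56 other plastid genes, which include these 14, and 2307 of the 13961 tested probe sets. By adjusted p, 1 of the 14 was called higher (rpl33) and 0 lower, with a median log2 fold change of 0.42. The count was 0 without wild type replicate 1 and 10 without wild type replicate 2.

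**Figure D3:**
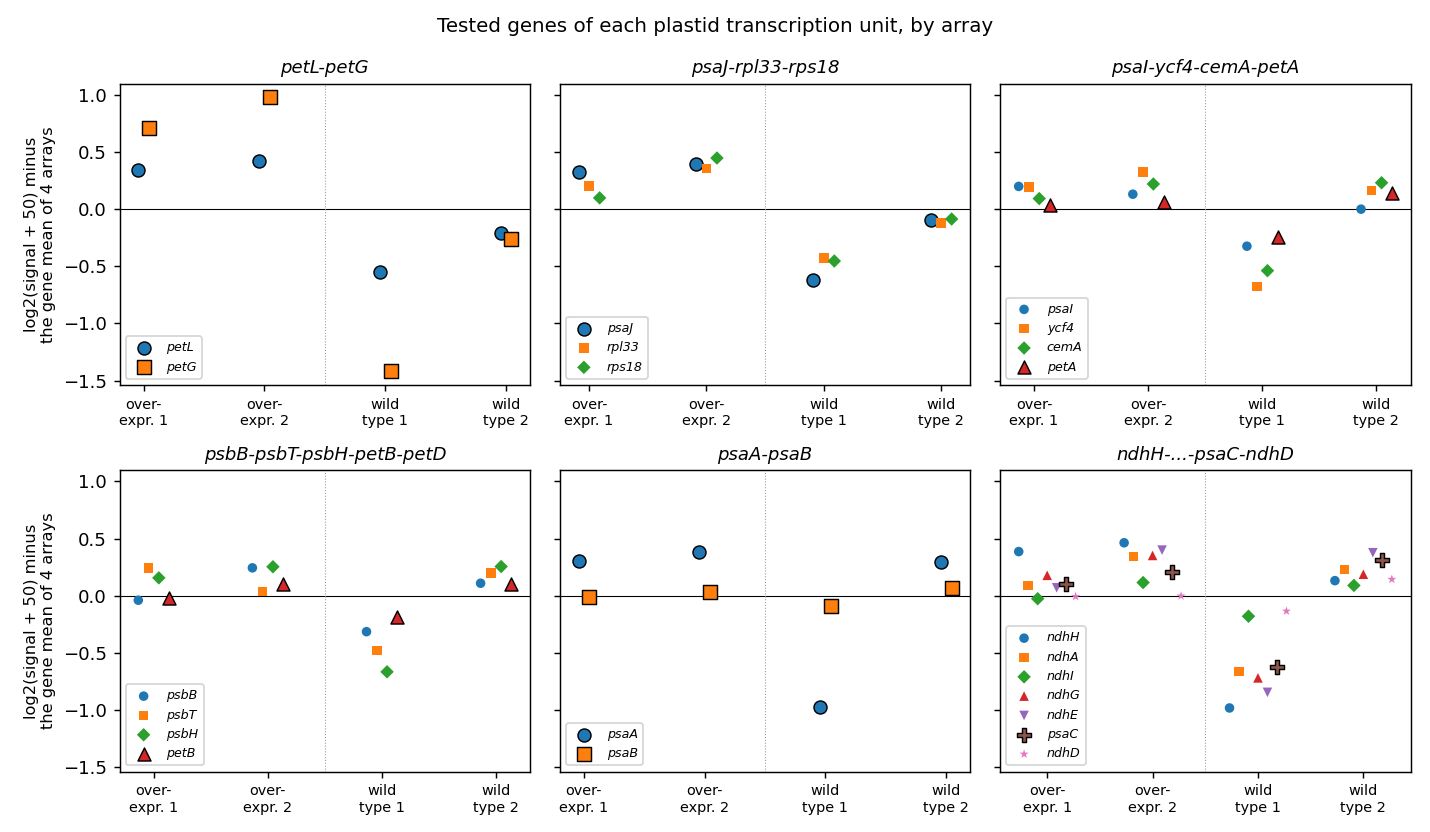
Signal of each tested gene in 6 plastid transcription units on each of the 4 arrays, as log2(signal + 50) minus the gene's own mean over the 4 arrays; large outlined symbols are pet and psa genes, and the dotted line divides overexpressor arrays (left) from wild type arrays (right). In the petL-petG and psaJ-rpl33-rps18 panels both wild type arrays lie below 0, whereas in the other panels wild type replicate 2 lies near or above 0 and wild type replicate 1 below it.

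**Figure D4:**
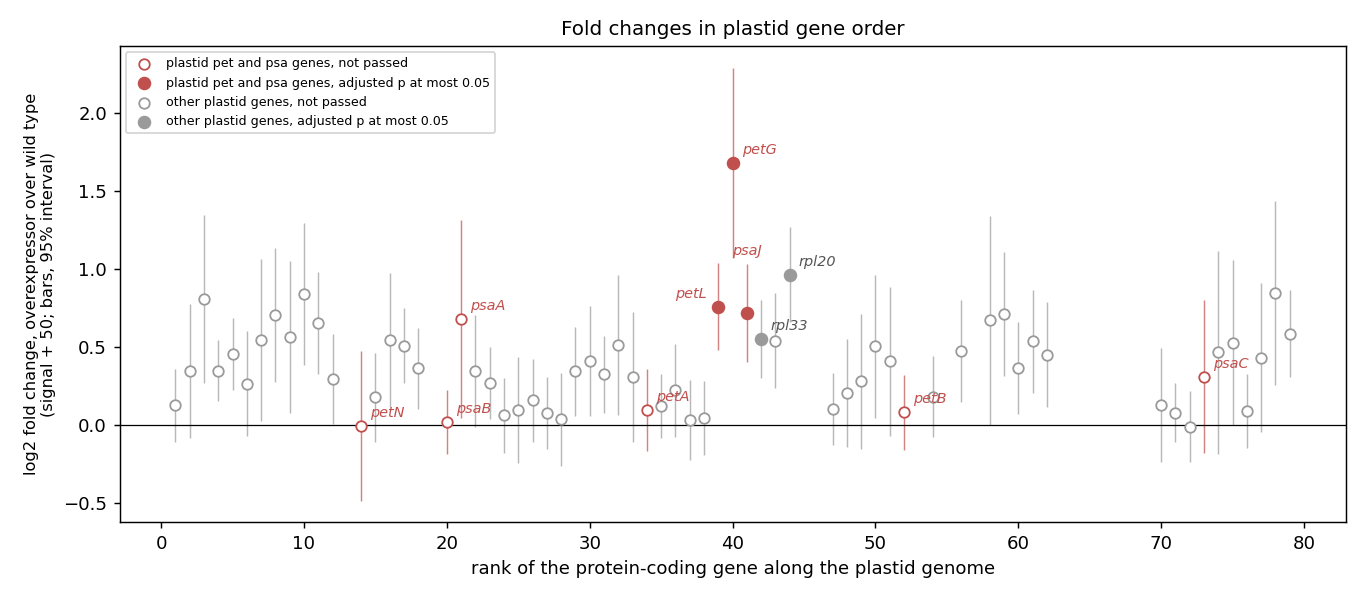
Log2 fold change of the overexpressor over wild type, with 95% intervals from limma, for the 65 tested plastid genes in the order of the plastid genome (rank among protein-coding genes); red marks pet and psa genes and filled symbols have an adjusted p of at most 0.05. The filled symbols petL, petG, psaJ, rpl33 and rpl20 lie between ranks 39 and 44, and the members at other places are open.

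The 3 called members lie next to each other, at ranks 39, 40 and 41 of the plastid protein-coding genes. The 10 genes were chosen by name, but with earlier results of these data known, so this position is only described. petL and petG also share a transcription unit, so the 3 genes are not 3 separate observations. The other tested members lie at ranks 14 (petN), 20 and 21 (psaB and psaA), 34 (petA), 52 (petB) and 73 (psaC), and none of them was called. Of the 56 other plastid genes, 4 had a larger log2 fold change than psaJ: rpl20, ndhH, rps2 and rps16, at 0.96, 0.85, 0.84 and 0.81. Of these, rpl20 was itself called (limma, adjusted p = 0.012), whereas ndhH, rps2 and rps16 were not. Large fold changes were thus not limited to the called genes.

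The genes whose pattern over the 4 arrays was most like the mean of the tested members were found among 7487 other tested probe sets naming 1 gene, by root mean square distance of log2 values relative to each gene's mean. The nearest 5 were AT3G56160, rps19, AT2G07170, rpl22 and accD, at distances of 0.030 to 0.050 log2 units. rps19 and rpl22 encode plastid ribosomal proteins and accD a plastid-encoded subunit of acetyl-CoA carboxylase, and none of the 5 passed the test of the groups. For petG, the member with the widest range, the nearest 3 were ndhH, rps16 and rps2, at the much larger distances of 0.42, 0.44 and 0.44, so the nearest pattern to petG was not close. These distances rest on 4 arrays.

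Nuclear genes of the same complexes were read beside the plastid members. The list held 42 nuclear genes for subunits, antenna proteins, electron carriers and assembly or RNA factors. Of these, 7 had a probe set naming that gene alone, and all 7 were tested. By limma 0 of these passed, with 0 at an unadjusted p under 0.05 and 0 passing under any alternative run, and the median log2 fold change was 0.05. PETM, the nuclear gene for a small cytochrome b6f subunit, had 17764 and 17700 in the overexpressor against 17618 and 17688 in wild type (log2 fold change 0.01 ± 0.09). Of photosystem I, PSAE-1, for a stromal subunit that helps ferredoxin dock, had 0.05 ± 0.09. PSAN, for a lumenal subunit that serves plastocyanin, had -0.14 ± 0.12. PETM, PSAE-1 and PSAN were bright, at mean signals of 17692.5, 16367 and 13235. Plastid probe sets of like brightness had log2 fold changes of 0.08 (petB, 16290), 0.09 (ndhI, 16841) and 0.55 (rpl33, 13439). Whether bright probe sets understate a change was not tested.

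Among assembly factors, CCB3, needed to attach a haem to cytochrome b6, had a log2 fold change of 0.26 ± 0.16, and CCS1, which serves haem attachment to cytochrome f, had 0.13 ± 0.11. HCF101, an iron-sulphur carrier for photosystem I, had 0.14 ± 0.10, and PYG7, a photosystem I assembly factor, had -0.13 ± 0.10. On wild type replicate 1, the array on which the plastid members were low, the 7 nuclear genes went both ways relative to their own means: CCB3 stood at -0.35, PSAN at 0.22 and PYG7 at 0.15, and the other 4 lay between -0.06 and 0.03. The difference between plastid and nuclear genes was not tested.

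Markers of green and root tissue were read because seedlings hold both. Of 6 green leaf markers 3 had a probe set naming that gene alone. The summed signal of RCA, LHCB4.1 and LHCB4.2 was 50668 and 55182 in the overexpressor against 52233 and 55432 in wild type. Their mean signals, 17888, 20541 and 14950, were also high, and whether bright probe sets understate a change was not tested here either. Of 5 root markers 3 had a probe set naming that gene alone. PYK10 had 12419 and 13078 in the overexpressor against 11463 and 12107 in wild type, and EXP7 had 245.6 and 220.5 against 185.2 and 240.6. EXPA18 was the 1 of the 3 with lower signals in the overexpressor, at 130.5 and 151.3 against 169.7 and 224.6 (log2 fold change -0.37 ± 0.17, adjusted p = 0.31). The summed root signal, 12795 and 13450 in the overexpressor against 11818 and 12572 in wild type, is almost wholly PYK10. None of these 6 markers was at 0 and none passed (limma, with 0 at an unadjusted p under 0.05). Their part in the plastid differences was not tested.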

How the data were processed

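Transcripts were measured on 4 Affymetrix arrays, 2 of each group as titled. The deposited values are intensities on a linear scale: MAS5 signals per the submitters' processing notes, with no version given in the sources used here, each array scaled to a target of 500 per the labels. That scaling hides a change shared by most transcripts. The labels refer to the manufacturer's manual for labelling and do not say how RNA was primed, which matters because plastid RNAs carry no stable poly(A) tail.

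Names came from the platform's annotation and the TAIR10.1 gene table. Gene positions in that table were used only for the order and neighbourhood of plastid genes. The build behind the probes is not given in the sources used here. Leaving out 64 control probe sets, the 13961 with a mean signal of at least 100 were tested on log2(signal + 50) with limma 3.58.1 in R 4.3.3 (lmFit, eBayes with an intensity trend, two-sided, Benjamini-Hochberg over all tested probe sets), as checked on simulated data. Levels of different probe sets were not tested against each other. The members, lists and units were chosen with earlier results of these data known. Named are all members, all genes of their units, nuclear genes and markers with a probe set naming 1 gene, and the nearest patterns. The genes rpl20, rps15, rps2 and rps16 were named after their values were seen. The 14 alternatives and 1 added later are given in the closing part.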

Additional observations from a re-analysis of the deposited data

How the results depend on the processing

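The number of arrays, 2 a group, limits every value. Of all tested probe sets 180 passed, and 1 passed with no filter on low signals, 9 with a constant variance prior, 1075 with the replicate block, and between 101 (without wild type replicate 1) and 489 (without overexpressor replicate 2) with each array left out, where the lone array of a group is assumed to vary like the other group. Of the members 3 passed. With no filter or a constant prior 0 passed, with a robust prior 1, with plastid probe sets centred on their own median 1, and with each array left out between 2 (without wild type replicate 1) and 5 (without wild type replicate 2). The members' median of 0.31 was -0.059 without wild type replicate 1, 0.78 without wild type replicate 2 and -0.041 with plastid centring. Of the operon neighbours 1 passed, and 0 with no filter, a constant prior or plastid centring, 10 with the replicate block, and 0 (without wild type replicate 1) to 10 (without wild type replicate 2) with each array left out. Over all tested probe sets, deviations of same-numbered arrays from their group means correlated at only 0.06. For each of the 9 tested members, however, replicate 2 was above replicate 1 in both groups, by at least 0.03 log2 units in the overexpressor and 0.16 in wild type. The members share the wild type difference with 51 of the 56 other plastid genes, so they are not 9 separate observations. Between the overexpressor arrays those other genes went both ways, from -0.25 to 0.48. Whether the shared numbers mark pairs of arrays is therefore not settled. The replicate block, under which 4 members passed, leaves 1 residual degree of freedom. Other pseudocounts (1, 16 and 100), a minimum signal of 250, quantile normalization and median centring left petL, petG and psaJ as the called members. The cause of the other changes was not tested.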
